A study of Mus musculus with 12 samples.

Results

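The genes described here are the innate sensors and adaptors on the panel: the Toll-like receptors, the RNA and peptidoglycan sensors, the inflammasome genes and the proteins that carry their signal. They were the probes named Tlr or Irak with a digit, together with 28 genes given by name, a rule that uses no measured value. The rule found 41 of the 770 genes counted, and 39 of the 41 had a mean of at least 20 counts and were among the 635 genes tested. Each was counted in 12 primary tumours of a mouse hepatocellular carcinoma model, 3 per group. The study asks how corticosteroid premedication bears on immune checkpoint blockade.

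The control group received an isotype antibody. The dICB group received anti-PD-1 with anti-CTLA4 antibody, and the remaining groups received the same antibodies with Dexa at 10 mg or at 200 mg, so dICB is common to all groups but the isotype one. These last groups are called the 10 mg and 200 mg groups below. The labels do not spell Dexa out and give no body weight, schedule, mouse strain, age or tumour line. No group had Dexa without the antibodies, so an effect of Dexa alone cannot be told apart from one that needs dICB. Whether the 3 tumours of a group were taken from 3 animals is not in the labels. If they were not, the spread behind the p-values may be technical.

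Toll-like receptors bind microbial lipids, proteins and nucleic acids, or molecules released by dying cells, at the cell surface or in endosomes. Through the adaptors Myd88 and Ticam1 they switch on NF-kB and interferon regulatory factors. Cytosolic helicases report viral RNA through Mavs, and the inflammasome activates caspase-1, which matures interleukin-1 beta. In liver and its tumours these genes are carried largely by macrophages, neutrophils and dendritic cells, with some in hepatocytes, and glucocorticoids are known to restrain the cytokine genes that they switch on. Levels below are normalised counts, which are counts scaled to a common library size by TMM. Changes are log2 fold changes ± SE, and a gene was called when edgeR's quasi-likelihood test gave an adjusted p under 0.05 over all 635 genes.

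Promoters are shown first for 2 pairs of members. Mefv and Nlrp3 were far above their other samples in the same tumour, and Tlr3 and Mavs ranked the 4 groups in the same order. Tlr4 and Ticam1 had that order of group means too. None of the 4 genes shown was called by edgeR's quasi-likelihood test. Sigirr, the only member that was, is among those without a promoter here. The sequences are the 250 bases before a start of the gene in RefSeq, build GRCm38.p6, written 5′ to 3′ on the gene's strand. That start need not be the outermost one. The Tlr3 window lies inside the gene's annotated span, which runs to base 45411075. The Mefv window lies partly inside its gene, which runs to base 3718211. Capitals mark a match to the kappaB motif, the consensus bound by NF-kB, which was searched on both strands. Mefv lies at chr16:3718125-3718374 on the minus strand, the first of the starts of Nlrp3 at chr11:59541319-59541568 on the plus strand, Tlr3 at chr8:45410381-45410630 on the minus strand and Mavs at chr2:131233813-131234062 on the plus strand.
Mefv: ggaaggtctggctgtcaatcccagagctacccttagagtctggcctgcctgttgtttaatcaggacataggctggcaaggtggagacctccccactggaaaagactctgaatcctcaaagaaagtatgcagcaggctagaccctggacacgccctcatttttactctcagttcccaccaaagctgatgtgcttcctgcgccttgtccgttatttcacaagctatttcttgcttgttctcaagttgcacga
Nlrp3: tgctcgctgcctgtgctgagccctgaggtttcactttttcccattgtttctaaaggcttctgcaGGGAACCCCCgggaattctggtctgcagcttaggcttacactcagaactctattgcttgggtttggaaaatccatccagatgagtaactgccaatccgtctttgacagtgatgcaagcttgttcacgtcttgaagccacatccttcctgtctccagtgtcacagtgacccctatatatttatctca
Tlr3: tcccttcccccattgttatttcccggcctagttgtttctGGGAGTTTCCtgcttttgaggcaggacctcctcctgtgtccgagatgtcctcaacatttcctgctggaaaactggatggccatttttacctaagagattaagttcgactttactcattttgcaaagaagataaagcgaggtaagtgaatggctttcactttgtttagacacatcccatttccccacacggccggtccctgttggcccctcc
Mavs: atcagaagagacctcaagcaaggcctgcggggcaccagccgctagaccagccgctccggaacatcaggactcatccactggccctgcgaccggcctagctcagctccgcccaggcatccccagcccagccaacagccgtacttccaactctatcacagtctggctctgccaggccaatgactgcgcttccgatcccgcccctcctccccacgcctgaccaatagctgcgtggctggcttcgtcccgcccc
The first base of the match lay 186 bases before the start used in Nlrp3 and 211 bases before the one used in Tlr3, and no match lay in these windows of Mefv and Mavs. RefSeq promoters were matched by symbol for 33 of the 41 members. Those of Lbp, Ly96, Nlrc5, Ripk2, Sigirr, Ticam2, Tlr4 and Tlr7 were not used here. These have 44 promoters, since some have several starts. A kappaB match was held by 10 of the 44 (22.7%), which belong to Irak1, Nlrp3, Tank, Tlr2, Tlr3 and Traf3, and by 7.25% of all 32851 promoters of this length. Windows of neighbouring starts overlap in Irak1 and Tank and hold the same sites, so these were counted more than once. By gene the match was held by 6 of the 33 members (18.2%). No share by gene was computed over all genes, and the 7.25% counts promoters, so it is not a like background for this value. The other start of Nlrp3 held none. The interferon response core, GAAA and GAAA parted by NN, was held by 2 of the 44 (4.55%), those of Myd88 and Tlr6, and by 2.98% of all promoters. The AP-1 motif TGANTCA was held by 2 of the 44 (4.55%), those of Tank and Tlr9, and by 6.75% of all promoters. The glucocorticoid receptor motif, GNACA and TGTNC parted by NNN, was found in 0 of the 44 and in 0.387% of all promoters. A match describes letters in this window only.

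Each sample held between 252994 and 428944 gene counts in total, and the members took 1.90% to 3.13% of them. A background limit, the mean of the 8 negative control probes plus 2 SD, lay between 18.1 and 38.1 counts. Above it were 32 of the 41 members in all 12 samples and 6 members in 9 to 11 samples. These 6 were Nod2 and Tlr9 (9 samples each), Tlr7 (10 samples) and Mefv, Tlr3 and Tlr6 (11 samples each). Tlr5, the flagellin receptor, was above it in 0 samples, Card9 in 1 and Pycard in 2, so that their fold changes understate any change. Housekeeping genes were not level under this scaling: 18 of 19 were lower at 200 mg than in isotype, with a median log2 fold change of -0.56, and 18 of 19 were lower in dICB than in isotype, with a median of -0.49. Between 10 mg and dICB 1 of 19 was lower, with a median of 0.235. Between 200 mg and 10 mg 17 of 19 were lower, with a median of -0.355. A label code, ICI7 or ICI10, whose meaning the labels do not give, was ICI7 in all isotype samples and ICI10 in all dICB samples, so that code and treatment cannot be told apart between them. In the 10 mg group replicate 2 was coded ICI10 and the others ICI7. In the 200 mg group replicate 3 was coded ICI7 and the others ICI10. Of the hepatocyte and epithelial markers, Muc1, C9 and Mbl2 were at or below the limit in every sample.

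Of the 12 tumours, 2 are described here. Replicate 1 of dICB was far above the rest in Mefv and Nlrp3. It was highest of all 12 samples in 6 of the 39 tested members (15.4%, against 13.5% of all tested genes), namely Mefv, Nlrp3, Irak2, Irak3, Tlr2 and Tlr6. That share was not particular to it, since replicate 2 of isotype was highest in 8 members (20.5%, against 14.5% of all genes). The members of replicate 1 of dICB deviated from their own means by a median log2 value of -0.02, against -0.03 over all genes. In the same tumour the summed level of 11 neutrophil markers was 18680, against 417 to 818 in the other 11 samples, and Cd14 and Il1b were also far above the rest. Most of that sum was S100a8, at 15820, followed by Lcn2, at 1819. Csf3r, Cxcr2, Fpr2 and Trem1 were also highest there, at 129 to 358. Of those markers Cxcr1, Ltf, Camp, Mpo and Elane were at or below the limit in every sample. The part of these markers in the Mefv and Nlrp3 values was not tested, and in bulk tumour fewer cells of a type and less RNA per cell cannot be told apart. Replicate 2 of the 10 mg group was lowest of all in 16 of the 39 members (41%), against 21.1% of all tested genes. It was the only sample of its group coded ICI10, so its code and its spread from the others cannot be told apart. Its members deviated from their own means by a median of -0.29 on the log2 scale, where all genes deviated by -0.03. The heat map shows both columns, and values without these tumours are given below for several members.

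**Figure D1:**
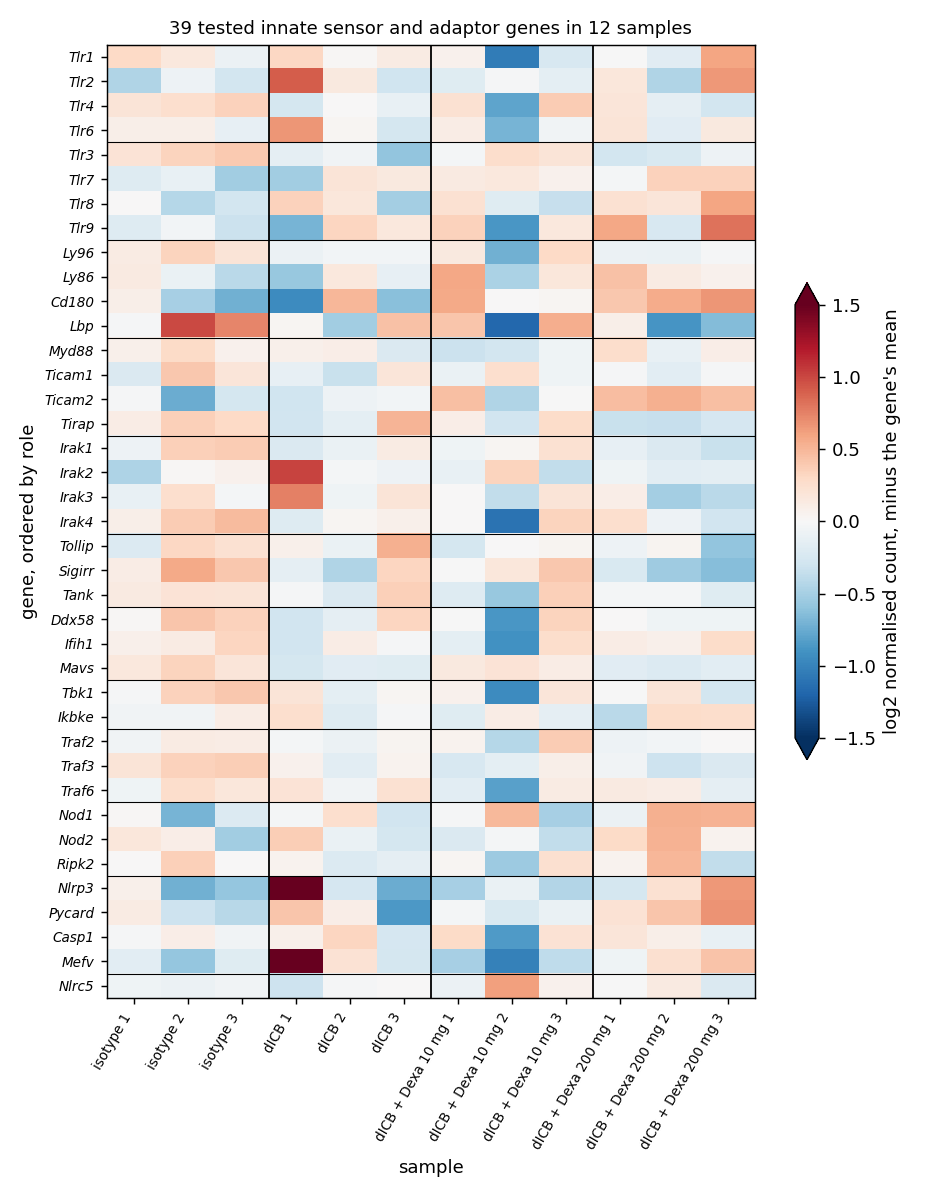
Each row is 1 of the 39 tested members, ordered by role, and each column 1 of the 12 samples; colour is the log2 normalised count (with 1 added) minus the gene's mean over the samples, cut off at 1.5. Nlrp3 and Mefv are darkest in replicate 1 of dICB, and the column of replicate 2 at 10 mg holds the lowest value of 16 members.

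Among the surface Toll-like receptors, none of the 4 tested was called in any comparison. Tlr2, which binds bacterial lipopeptides, had 50.7, 66.1 and 57.2 normalised counts in isotype, 131, 77.4 and 56.6 in dICB, 61.4, 68.9 and 62.7 at 10 mg and 78.4, 50.7 and 110.1 at 200 mg. Replicate 1 of dICB and replicate 3 at 200 mg were the high samples, and every group overlapped the others. Between dICB and isotype Tlr2 differed by 0.62 ± 0.32 (adjusted p = 0.298), and by 0.23 without replicate 1 of dICB. Tlr4, the receptor for lipopolysaccharide, had 239, 249.6 and 266 in isotype, 174, 211 and 194 in dICB, 245, 121 and 273 at 10 mg and 239, 190.2 and 173 at 200 mg. All isotype values lay above all dICB values and, by a narrow margin (239.3 against 238.6), above all 200 mg values, while the 10 mg group spanned both, with replicate 2 low. The difference between dICB and isotype was -0.38 ± 0.27 (adjusted p = 0.461). Tlr1 and Tlr6, which pair with Tlr2 to read different lipopeptides, were lowest in replicate 2 at 10 mg, at 31.65 and 25.1, and ran up to 101 and 66.0. They are close paralogs, and their probes may share signal. Tlr5 averaged 19.3 counts and was not tested.

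Helpers of Tlr4 and its relatives were counted beside it. Cd14, which hands lipopolysaccharide to Tlr4 and is not a member of the set, had 53.5, 81.8 and 67.3 in isotype, 1010, 86.3 and 92.3 in dICB, 75.2, 68.9 and 81.0 at 10 mg and 101, 85.95 and 78.0 at 200 mg. Replicate 1 of dICB was far above every other sample, and the other dICB samples lay above all isotype and 10 mg values and inside the 200 mg range. Ly96, or MD-2, the part of the Tlr4 complex that holds the lipid, had 197, 228 and 207 in isotype, 170.2, 176 and 176 in dICB, 199.9, 109 and 223 at 10 mg and 169.6, 169 and 179 at 200 mg. Its dICB and 200 mg values lay in narrow ranges below all isotype values, with differences of -0.28 ± 0.24 (adjusted p = 0.575) and -0.29 ± 0.24 (adjusted p = 0.43). Lbp, the plasma protein that carries lipopolysaccharide and is made mainly by hepatocytes, had 1519, 3062 and 2552 in isotype, 1563, 1065 and 2088 in dICB, 2043, 681 and 2236 at 10 mg and 1636, 834 and 979.8 at 200 mg. The groups overlapped, because replicate 1 of isotype was lower than replicate 1 at 200 mg. The 200 mg mean of 1150 ± 427 (SD, n = 3) against 2378 ± 786 in isotype gave -1.05 ± 0.43 (adjusted p = 0.121), and Lbp was called without replicate 2 of the 10 mg group (-1.07, adjusted p = 0.0423).

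Cd180, or RP105, a Toll-like protein of B cells and macrophages that works with Ly86, had 254, 169.9 and 145 in isotype, 124, 339 and 155 in dICB, 356, 240.2 and 246 at 10 mg and 317, 352 and 379.8 at 200 mg. All 200 mg values lay above all isotype values, and the dICB group spread across nearly the whole range. The difference from isotype was 0.88 ± 0.35 (adjusted p = 0.112) and that from dICB 0.76 ± 0.35 (adjusted p = 0.538), or 0.50 without replicate 1 of dICB. Cd180 was called against isotype without replicate 2 of dICB (0.86, adjusted p = 0.0446). Its partner Ly86 had no call, with 0.33 ± 0.28 between 200 mg and isotype.

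The endosomal receptors read nucleic acids. Tlr3, which binds double-stranded RNA, had 42.2, 46.15 and 48.2 in isotype, 32.98, 35.0 and 23.8 in dICB, 35.8, 43.8 and 41.8 at 10 mg and 29.8, 31.0 and 34.4 at 200 mg. Isotype lay above dICB and 200 mg with no overlap, and the 10 mg group lay above both of these and reached into the isotype range. The differences were -0.55 ± 0.19 for dICB against isotype (adjusted p = 0.158), 0.38 ± 0.19 for 10 mg against dICB (adjusted p = 0.56), and -0.52 ± 0.20 for 200 mg against isotype (adjusted p = 0.0943). With housekeeping gene factors the first of these was -0.09 and the last turned to 0.02. Tlr7, which reads single-stranded RNA, had 32.85, 34.6 and 25.8 in isotype, 25.85, 43.2 and 41.7 in dICB, 41.3, 41.9 and 39.2 at 10 mg and 36.6, 47.9 and 48.2 at 200 mg. Isotype lay below both Dexa groups with no overlap, while dICB reached into both sides. The difference was 0.39 ± 0.23 at 10 mg (adjusted p = 0.71) and 0.50 ± 0.23 at 200 mg (adjusted p = 0.162). Tlr9, the receptor for unmethylated CpG DNA, had 39.4, 44.05 and 35.9 in isotype, 27.6, 57.0 and 50.6 in dICB, 57.8, 24.2 and 50.5 at 10 mg and 68.2, 38.0 and 80.3 at 200 mg. The samples of each treated group were spread more widely than those of isotype, and no call resulted. Tlr8 gave 0.57 ± 0.26 between 200 mg and isotype (adjusted p = 0.156).

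Of the Toll adaptors, Myd88 serves nearly all Toll-like receptors and the interleukin-1 receptor family. It had 133, 154 and 132 in isotype, 133, 135 and 109 in dICB, 101, 104 and 120.2 at 10 mg and 152, 117 and 135 at 200 mg. The 10 mg values lay below all isotype values and overlapped the rest, with -0.37 ± 0.20 (adjusted p = 0.662). Ticam1, or TRIF, the adaptor of Tlr3, had 61.0, 94.4 and 80.7 in isotype, 65.1, 56.2 and 80.4 in dICB, 66.0, 84.7 and 67.9 at 10 mg and 69.9, 63.4 and 70.0 at 200 mg. No group separated from another in Ticam1. Ticam2, or TRAM, the bridge from Tlr4 to Ticam1, had 54.4, 32.5 and 46.0 in isotype, 44.6, 52.1 and 53.6 in dICB, 76.1, 40.0 and 54.9 at 10 mg and 76.7, 80.3 and 75.7 at 200 mg. The 200 mg samples sat close together above every isotype and dICB sample, with 1 sample at 10 mg beside them. The difference from isotype was 0.80 ± 0.26 (adjusted p = 0.0558) and that from dICB 0.63 ± 0.25 (adjusted p = 0.504). DESeq2 called the first of these (0.82, adjusted p = 0.0378), and with housekeeping gene factors it was 1.31 (adjusted p = 0.0139). Tirap, the sorting adaptor of Myd88, gave -0.57 ± 0.24 between 200 mg and isotype (adjusted p = 0.129).

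The Irak kinases act directly below Myd88. Irak2 stood at 726 in replicate 1 of dICB and between 261 and 452 in the other samples. Without that tumour its difference between dICB and isotype went from 0.51 ± 0.30 to 0.06. Irak3, or IRAK-M, an inactive family member that damps the signal, had 102, 132 and 109 in isotype, 188, 106 and 127 in dICB, 111, 85.65 and 127 at 10 mg and 119, 77.5 and 83.8 at 200 mg. The same dICB tumour was the high sample, and 200 mg against dICB gave -0.58 ± 0.27 (adjusted p = 0.538), or -0.27 without it. Irak1 differed by -0.46 ± 0.20 between 200 mg and isotype (adjusted p = 0.133), with no overlap. Irak4, the first kinase of the complex, had its lowest count, 90.3, in replicate 2 at 10 mg and otherwise ran from 161 to 272.

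Sigirr was the only member called in any comparison under the main scaling. Its product, an orphan receptor of the interleukin-1 family also known as TIR8, dampens signalling from Toll-like and interleukin-1 receptors and is abundant in epithelial cells. It had 464.5, 642 and 573 in isotype, 393, 314 and 539 in dICB, 431, 487 and 573 at 10 mg and 368, 297 and 276.5 at 200 mg. Every 200 mg sample lay below every isotype sample and every 10 mg sample, while dICB spanned both. The 200 mg mean was 314 ± 48.0 and the isotype mean 559.7 ± 89.4 (SD, n = 3 each). Sigirr fell by 0.83 ± 0.23 (adjusted p = 0.0335). The difference between 200 mg and 10 mg was -0.66 ± 0.23 (adjusted p = 0.299), and that between dICB and isotype -0.43 ± 0.23 (adjusted p = 0.298). Within label code ICI7 the 200 mg group has 1 sample, whose spread has to be borrowed from the other groups, and the difference there was -1.04 (adjusted p = 0.0325). The call was lost with housekeeping gene factors (-0.29, adjusted p = 0.261), with positive control factors (-0.47, adjusted p = 0.299), with the label code as a covariate (-0.91, adjusted p = 0.0788), and on leaving out replicate 2 (-0.72, adjusted p = 0.127) or 3 (-0.84, adjusted p = 0.0976) of isotype, or replicate 2 (-0.82, adjusted p = 0.0997) or 3 (-0.75, adjusted p = 0.119) at 200 mg. Of 10 hepatocyte and epithelial markers, with summed levels of 17970 to 26400 in isotype and 15700 to 20380 at 200 mg, 7 were tested. Most of that sum was Apoe, at 15860 to 24610 in isotype and 13660 to 17710 at 200 mg. Between these groups 5 of the 7 were below 0 and 2 above, with a median of -0.46. Epcam and Egfr were called lower at 200 mg than in isotype, at -0.84 ± 0.23 (adjusted p = 0.0302) and -0.94 ± 0.27 (adjusted p = 0.0383) respectively, and their part in the Sigirr result was not tested. Of the other brakes, Tollip, which holds Irak1 back, ran from 388 to 844 over the 12 samples and Tank, a Traf-binding inhibitor of NF-kB, from 144 to 275.5, and neither had a call.

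**Figure D2:**
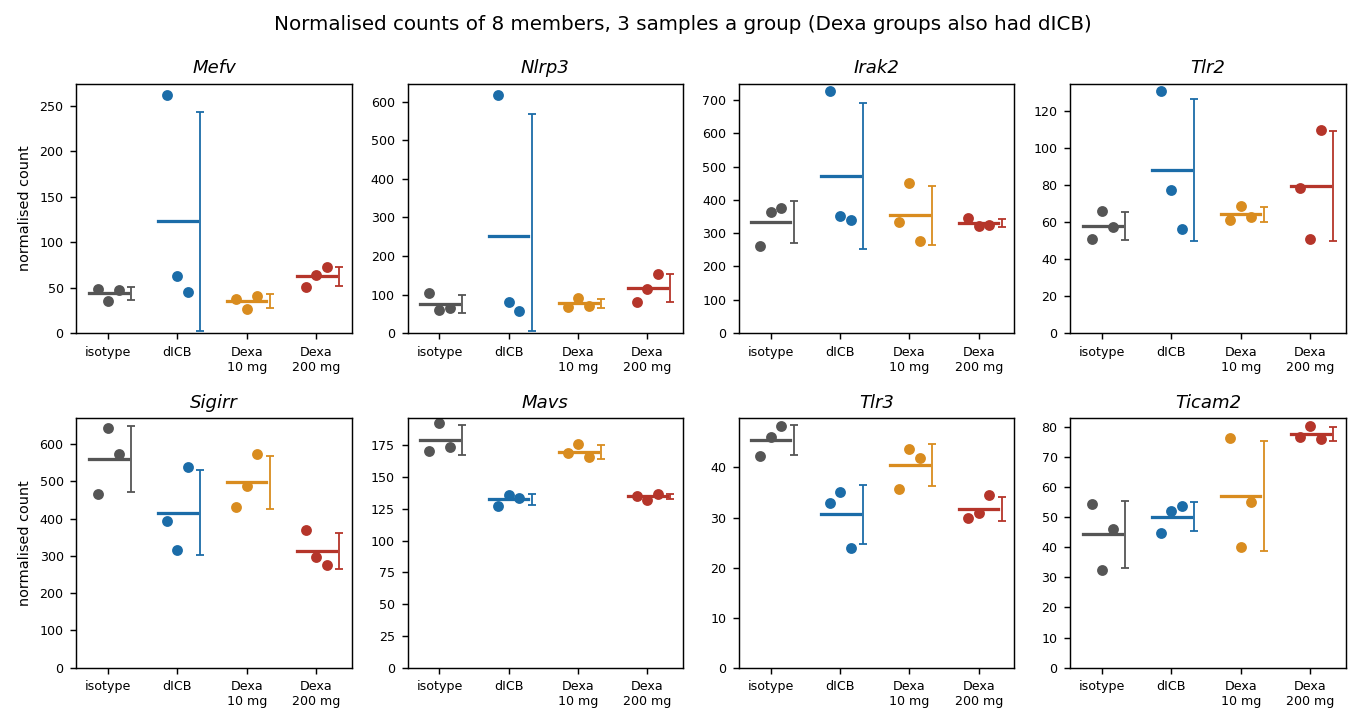
Normalised counts (y axis, from 0) of 8 members in the 4 groups; points are the 3 samples of a group in the order of replicates 1 to 3, horizontal bars are means and whiskers are 1 SD. The upper panels show the single high dICB tumour, which reached 617 for Nlrp3 and 261 for Mefv, and the lower panels show members whose groups separated, such as Sigirr at 277 to 368 in the 200 mg group against 464.5 to 642 in isotype.

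The cytosolic RNA sensors report through Mavs, an adaptor on the mitochondrial surface. Mavs had 171, 193 and 174 in isotype, 127.5, 136 and 134 in dICB, 169, 176 and 165.5 at 10 mg and 135.5, 132 and 136.5 at 200 mg. The samples fell into 2 levels, isotype with 10 mg above dICB with 200 mg, with no overlap between the levels. Group means took up 94.1% of the variance of its log2 level, the highest share among the 39 tested members, whose median was 31.5%. That share was not computed for the other genes of the panel, so its rank among all genes is not known. In 10 of the 12 samples the level also went with the label code, ICI7 at the higher level and ICI10 at the lower. The exceptions were the 10 mg sample coded ICI10, replicate 2, at 176, and the 200 mg sample coded ICI7, replicate 3, at 136.5. The differences were -0.43 ± 0.17 for dICB against isotype (adjusted p = 0.181), 0.36 ± 0.17 for 10 mg against dICB (adjusted p = 0.508), -0.33 ± 0.17 for 200 mg against 10 mg (adjusted p = 0.426) and -0.41 ± 0.17 for 200 mg against isotype (adjusted p = 0.124). The 19 housekeeping genes had medians of -0.49, 0.235, -0.355 and -0.56 in the same order. Between 10 mg and isotype Mavs was at -0.075 and their median at -0.298. Their part in the Mavs levels was not tested. With housekeeping gene factors Mavs differed by 0.01 between dICB and isotype and by 0.13 between 200 mg and isotype, so its direction against isotype turned.

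Ddx58, or RIG-I, had 411, 544 and 518 in isotype, 332, 371 and 508 in dICB, 403.5, 221 and 512 at 10 mg and 408, 387.5 and 389 at 200 mg. The 200 mg samples lay close together just below the isotype range, at -0.31 ± 0.28 (adjusted p = 0.451). Ifih1, or MDA5, which binds long double-stranded RNA, had 220.5, 228 and 261 in isotype, 171, 225 and 205.5 in dICB, 188, 111 and 251 at 10 mg and 226, 219.8 and 254 at 200 mg. Both helicases were lowest in replicate 2 at 10 mg and no comparison of either was called. The kinases Tbk1 and Ikbke, which phosphorylate interferon regulatory factors, had no call. Tbk1 was also lowest in that tumour, at 145, and reached 372 in isotype, and Ikbke ran from 253 to 407.

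The Traf ligases relay the signal of both receptor classes. Traf3, which is needed for interferon induction and restrains the alternative NF-kB path, had 139, 154 and 157 in isotype, 127, 108 and 125 in dICB, 103, 109 and 129 at 10 mg and 117, 97.2 and 104 at 200 mg. Isotype lay above each of the other groups with no overlap. The difference from isotype was -0.32 ± 0.19 in dICB (adjusted p = 0.356), -0.40 ± 0.19 at 10 mg (adjusted p = 0.625) and -0.50 ± 0.19 at 200 mg (adjusted p = 0.0955). Without replicate 2 of the 10 mg group the last of these was called (-0.52, adjusted p = 0.0496), and with housekeeping gene factors it was 0.04. Traf2, which ran from 135 to 239, and Traf6, the ligase directly below the Irak kinases, from 68.0 to 144, had no call in any comparison.

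Nod2, the cytosolic sensor of muramyl dipeptide, had 38.5, 36.7 and 23.5 in isotype, 44.6, 31.8 and 28.3 in dICB, 29.3, 33.5 and 26.1 at 10 mg and 41.75, 49.3 and 35.6 at 200 mg. The 200 mg values lay above all 10 mg values and overlapped isotype and dICB, with 0.50 ± 0.25 between the Dexa groups (adjusted p = 0.407). Nod1, which senses a related peptidoglycan fragment, differed by 0.62 ± 0.29 between 200 mg and isotype (adjusted p = 0.166). Their kinase Ripk2 ran from 68.0 to 141 and had no call. Card9, an adaptor of fungal lectin receptors, averaged 18.6 counts and was not tested. Its normalised counts were 9.385, 14.7 and 21.3 in isotype, 20.5, 13.0 and 16.4 in dICB, 18.3, 15.8 and 13.1 at 10 mg and 22.15, 40.9 and 26.4 at 200 mg, at or near background in nearly all samples. Nlrc5, which drives MHC class I genes, was highest at 991 in replicate 2 at 10 mg and otherwise ran from 521 to 710.1.

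Of the inflammasome genes, Nlrp3 and Mefv had the widest ranges of all tested members. Nlrp3, the sensor, had 103, 58.7 and 65.0 in isotype, 617, 81.45 and 58.1 in dICB, 68.8, 91.2 and 71.4 at 10 mg and 80.95, 114 and 154 at 200 mg. Mefv, or pyrin, a sensor found mainly in neutrophils and monocytes, had 47.9, 35.7 and 47.1 in isotype, 261, 62.7 and 44.7 in dICB, 37.6, 26.1 and 40.9 at 10 mg and 51.1, 63.4 and 72.3 at 200 mg. In both genes 1 dICB tumour was far above all others, and the other dICB samples overlapped isotype. The highest sample was 10.6 times the lowest for Nlrp3 and 10.0 times for Mefv, whereas for the other 37 tested members that ratio ran from 1.51 to 4.498. Pycard, or ASC, which joins the sensors to caspase-1, had 21.6, 15.7 and 14.6 in isotype, 26.7, 21.2 and 10.4 in dICB, 19.3, 16.8 and 18.3 at 10 mg and 23.0, 26.8 and 32.1 at 200 mg, mostly below the background limit. Its 200 mg values lay above all isotype and 10 mg values, with 0.58 ± 0.28 between the Dexa groups (adjusted p = 0.407). Casp1 itself had 356, 384 and 347.5 in isotype, 379, 448 and 301 in dICB, 437, 199 and 419 at 10 mg and 408, 382 and 333 at 200 mg. The low sample of Casp1 was replicate 2 at 10 mg, and all groups overlapped. In replicate 1 of dICB, where Nlrp3 and Mefv were highest, Casp1 stood inside the range of the other samples, and Il1b, the substrate of the enzyme, stood at 3386 against 71.7 to 148 elsewhere.

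Setting dICB against isotype asks what the antibodies did without Dexa. The comparison called 0 of the 39 members, and 0% of all tested genes, by edgeR's quasi-likelihood test, and DESeq2 called 1 (2.56%), Mefv (adjusted p = 0.0465), against 4.88% of all genes. At an unadjusted p under 0.05 there were 4 members (10.3%), namely Mefv and Nlrp3 above and Tlr3 and Mavs below, against 20% of all genes. The groups did not overlap in 6 members (15.4%), Irak4, Ly96, Mavs, Tlr3, Tlr4 and Traf3, all lower in dICB, against 22.7% of all genes, of which 12.8% were lower and 9.92% higher. Mefv differed by 1.51 ± 0.52 (adjusted p = 0.152) and Nlrp3 by 1.74 ± 0.69 (adjusted p = 0.181). Without replicate 1 of dICB these became 0.33 and -0.11, so that Nlrp3 changed direction. Without replicate 3 of dICB, Mefv was called (1.91, adjusted p = 0.0378). The median over members was -0.03, against 0.03 over all genes. With housekeeping gene factors the split of 19 members above and 20 below 0 became 37 above and 2 below.

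**Figure D3:**
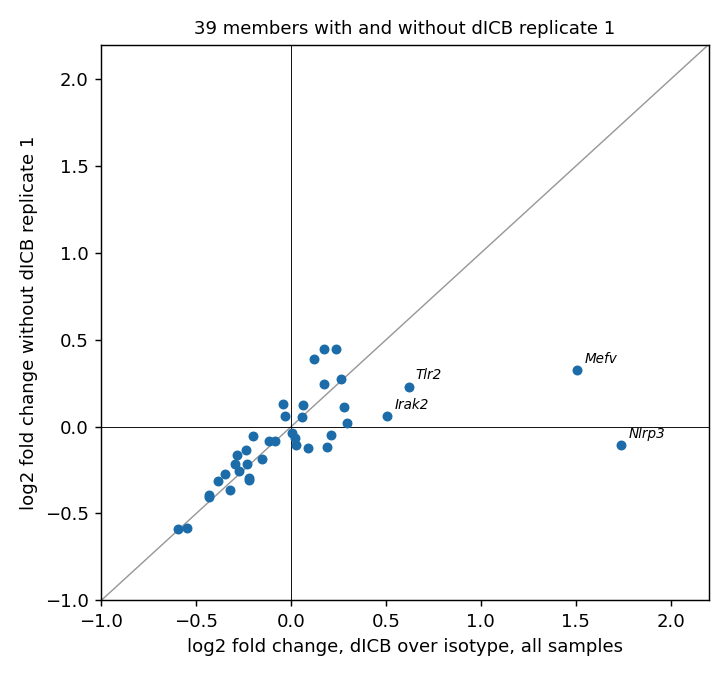
Log2 fold change of dICB over isotype for the 39 tested members, with all samples on the x axis and without replicate 1 of dICB on the y axis; the grey line marks equal values. Nlrp3 and Mefv lie far below the line, at 1.74 and 1.51 on the x axis, and the other members stay within 0.5 of it.

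Dexa at 10 mg was set against dICB to ask what the lower dose added to the antibodies. 0 of the 39 members were called by edgeR's quasi-likelihood test or by DESeq2, and 0% of all genes. Unadjusted p was under 0.05 for 2 members (5.13%), against 9.45% of all genes. They were Mefv, at -1.83 ± 0.53 (adjusted p = 0.402), and Nlrp3, at -1.72 ± 0.69 (adjusted p = 0.454). Without the high dICB tumour Mefv was at -0.61 and Nlrp3 at 0.16. The groups did not overlap in 3 members (7.69%, against 7.87% of all genes): Mavs and Tlr3 were higher at 10 mg (3.78% of all genes were) and Mefv lower (4.09% of all genes were). The median over members was -0.09, against -0.01 over all genes, and became 0.10 without replicate 2 of the 10 mg group.

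Dexa at 200 mg against dICB gave the same count of calls, 0 of 39 members, against 0% of all genes by edgeR's quasi-likelihood test and 0.472% by DESeq2. Ticam2 alone had an unadjusted p under 0.05, where 8.5% of all genes did, and was the 1 member whose groups did not overlap, where 8.82% of all genes were, 5.04% higher and 3.78% lower. Mefv was at -0.999 ± 0.51 and Nlrp3 at -1.13 ± 0.68. Without the high dICB tumour both changed direction, Mefv to 0.19 and Nlrp3 to 0.72. This comparison and the one before share the dICB samples.

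Between the doses 0 of the 39 members were called by edgeR's quasi-likelihood test or by DESeq2, and 0% of all genes. Sigirr alone had an unadjusted p under 0.05, where 12% of all genes did. The groups did not overlap in 7 members (17.9%), against 21.7% of all genes. Mefv, Nod2 and Pycard were higher at 200 mg, as were 9.61% of all genes, and Irak1, Mavs, Sigirr and Tlr3 were lower, as were 12.1%. The member median of 0.11, against 0.05 over all genes, became -0.02 without replicate 2 of the 10 mg group.

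Dexa at 10 mg against isotype gave 0 calls among the members, against 0% of all genes by edgeR's quasi-likelihood test and 0.63% by DESeq2. No member had an unadjusted p under 0.05 (0 of 39, against 8.35% of all genes). The groups did not overlap in 3 members, Tlr7 above and Myd88 and Traf3 below, which is 7.69% against 13.1% of all genes (8.03% higher, 5.04% lower). The median over members was -0.17, with 27 of 39 below 0, against -0.03 over all genes. Positive control factors turned it to 0.16, with 9 of 39 below 0.

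The largest number of separations was between 200 mg and isotype, groups that differ both in the antibodies and in Dexa. Sigirr was the 1 of 39 members called (2.56%), against 13.2% of all genes, of which 39 rose (6.14%) and 45 fell (7.09%). DESeq2 called 2 (5.13%), Sigirr and Ticam2, against 19.2% of all genes. At an unadjusted p under 0.05 there were 10 members (25.6%, against 32.3% of all genes). The groups did not overlap in 16 members (41%, against 44.6% of all genes). Above isotype were 6, Cd180, Mefv, Pycard, Ticam2, Tlr7 and Tlr8, where 20.9% of all genes were. Below it were 10, Ddx58, Irak1, Ly96, Mavs, Sigirr, Tank, Tirap, Tlr3, Tlr4 and Traf3, where 23.6% of all genes were. The median over members was -0.03, against 0.03 over all genes. The direction of many of these differences rests on the scaling: with housekeeping gene factors it turned in 19 of the 39 members. Those factors moved the median of all genes to 0.55 and called 7 members, Cd180, Nod1, Pycard, Ticam2, Tlr7, Tlr8 and Tlr9, all higher, with 161 genes higher and 4 lower over the whole panel. Positive control factors moved that median to 0.35 and called 1 member, Ticam2, with 56 genes higher and 2 lower. Sigirr, Lbp and Tirap were the members still below 0 with housekeeping gene factors.

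**Figure D4:**
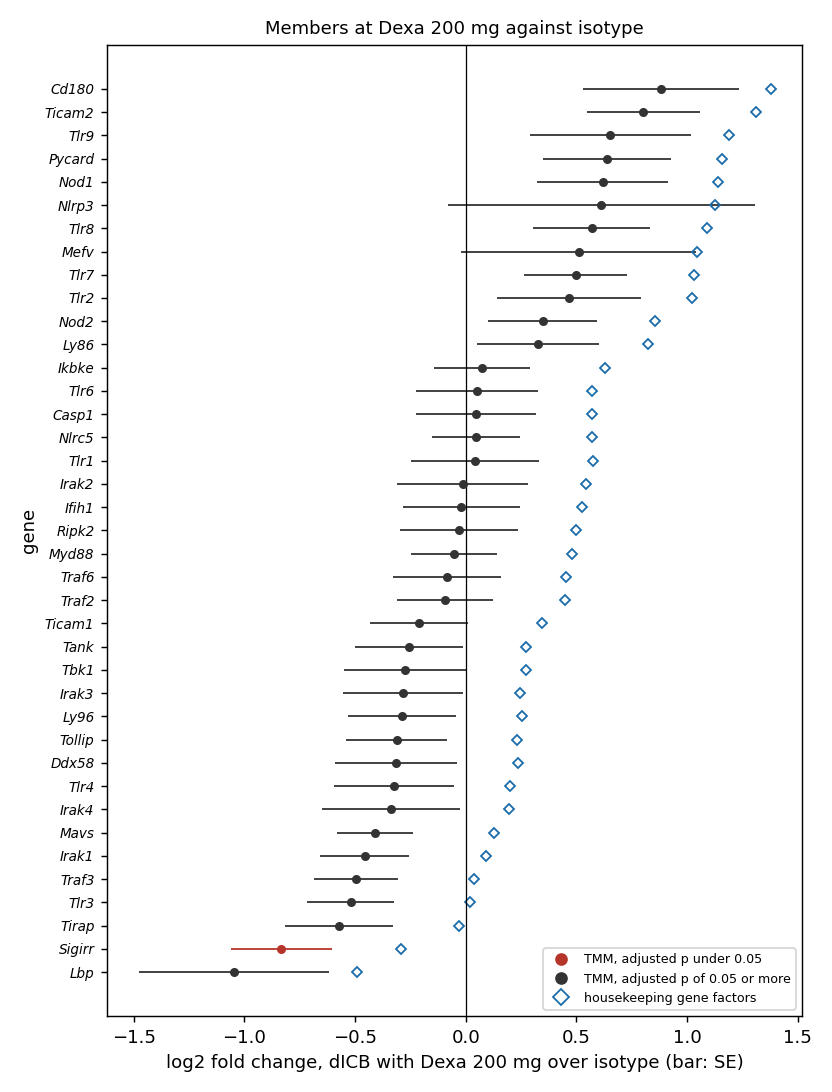
Log2 fold change of 200 mg over isotype for the 39 tested members, ordered by size; filled circles are values under TMM scaling with bars of 1 SE, red where called, and open diamonds are values with housekeeping gene factors. Sigirr, at -0.83, is the single red point, and the diamonds lie to the right of the circles, leaving 3 of the 39 members below 0.

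The summed level of the macrophage markers was also higher at 200 mg than in isotype, while the members were spread to both sides, 17 above 0 and 22 below. For 12 macrophage and monocyte markers it was 5683 to 15190 in isotype, 8544 to 19890 in dICB, 12310 to 19040 at 10 mg and 21360 to 34400 at 200 mg. Most of that sum was 1 gene, Lyz2, at 3891 to 12370, 6061 to 16750, 10060 to 16080 and 18030 to 30270 in the same order. Over the 12 markers 200 mg gave a median of 0.64 against isotype, with 11 above 0 and 1 below. Against dICB the median was 0.24, with 9 above 0, 3 below and 0 called. Of the 12, Cd68, Itgam, Lyz2 and Marco were called higher at 200 mg than in isotype and Cx3cr1 lower. Cd180, Tlr7, Tlr8, Pycard and Mefv lay above isotype with no overlap. Tlr4 and Ly96, which macrophages express too, lay below it with no overlap, and Casp1, which overlapped it, differed by 0.05. The part of these markers in the members' values was not tested.

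Across all 4 groups at once, edgeR's quasi-likelihood test called 0 of the 39 members, against 0.787% of all genes, and DESeq2 called 1 (2.56%), Mefv, against 11.2% of all genes. Unadjusted p was under 0.05 for 5 members (12.8%, against 21.7% of all genes). They were Mefv (adjusted p = 0.121), Sigirr (adjusted p = 0.131), Tlr3 and Ticam2 (adjusted p = 0.2 for both) and Mavs (adjusted p = 0.229). Mefv was called without replicate 3 of dICB (adjusted p = 0.0378), and Cd180 without replicate 2 of dICB (adjusted p = 0.0443).

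Genes above, beside and below the members in these pathways were called only in the comparison of 200 mg with isotype; in the other 5 pairwise comparisons edgeR's quasi-likelihood test called 0 of each list and 0% of all genes. The share of all genes called between 200 mg and isotype was 13.2%, and 3 of these 4 lists held a smaller share of calls. Among 8 other sensors and ligand carriers, 2 rose and 1 fell. Clec7a, the beta-glucan receptor dectin-1, rose by 1.46 ± 0.27 (adjusted p = 0.0107), and Syk, the kinase below it, by 0.98 ± 0.23 (adjusted p = 0.0184). Hmgb1, a nuclear protein that Tlr4 can sense once it is released, fell by 0.95 ± 0.21 (adjusted p = 0.0171), and was not called with housekeeping gene factors (-0.41, adjusted p = 0.0656). Of 30 downstream kinases and transcription factors, Irf7, the interferon regulatory factor used by Tlr7 and Tlr9, rose by 1.07 ± 0.27 (adjusted p = 0.0225) and Nfkb2, a subunit of the alternative NF-kB path, fell by 0.80 ± 0.22 (adjusted p = 0.0335). Nfkb2 was not called with housekeeping gene factors (-0.27, adjusted p = 0.421). The median over these 30 was -0.39. Of 19 interferon-induced genes, Ifit2 rose, as did Irf7, which both lists hold, with a list median of 0.34. Clec7a, Hmgb1, Ifit2, Irf7, Nfkb2, Nos2 and Syk kept their direction under all 23 alternatives run for this comparison and were called in 15 to 22 of them.

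Of 15 cytokine and enzyme genes that the members can switch on, Nos2, the inducible nitric oxide synthase of macrophages, rose by 2.46 ± 0.38 (adjusted p = 0.00665). It was the only 1 of the 15 called, and the list was spread to both sides, 9 above 0 and 6 below, with a median of 0.18. Nos2 had 62.9, 61.9 and 61.65 in isotype, 399, 240.3 and 165 in dICB, 197, 245 and 112 at 10 mg and 302.5, 468 and 255 at 200 mg. All treated samples lay above all isotype samples in Nos2.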

How the data were processed

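Genes were counted in RNA from 12 primary mouse tumours, extracted from fixed, paraffin-embedded tissue per the labels' protocols, which fragments RNA. As deposited, each probe's value is a raw count, whole and with control probes still above 0, for 770 genes, 6 positive controls and 8 negative controls. No source used here names the instrument or the counting software. Groups came from the labels.

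Here counts were fitted in R 4.3.3 with edgeR 4.0.16: TMM scaling, a minimum mean count of 20, and 1 quasi-likelihood model of the 4 groups over 12 samples (8 residual degrees of freedom, 12.4 after moderation), with two-sided tests and Benjamini-Hochberg adjustment over 635 genes. Every adjusted p in the report comes from this test unless DESeq2 is named. Normalised counts are scaled to the mean effective library of 357620 counts. Each SE is approximate, taken from the log2 fold change and its F statistic. The fit was also tested on simulated data.

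The members, role lists, pathway lists and marker lists were chosen with earlier results of these data known. Values in every sample were given for the 3 members of smallest p in each pairwise comparison, the 5 of smallest p over the 4 groups and a set list of sensors and adaptors; Lbp, shown because its call depends on the settings, was added after its values were seen. Promoters came from the RefSeq table of GRCm38.p6, and all 41 symbols matched that build's gene table.

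Alternatives were DESeq2 1.42.0, factors from 19 housekeeping genes or from 5 positive controls, minimum mean counts of 0 or 50, negative controls subtracted with limma 3.58.1, a fit of only the groups compared, a block for replicate number, the label code as a covariate or fitted within 1 code, and each sample left out. Same-numbered samples of different groups did not deviate together (4 of 18 pairs with a correlation above 0.1), so the numbers were not taken as pairs.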

Additional observations from a re-analysis of the deposited data

How the results depend on the processing

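Of 5346 alternative values for the 39 tested members, 28 gained a call, 26 of them between 200 mg and isotype, and 7 lost one, all for Sigirr. The count of members called between dICB and isotype was 0, and 1 with DESeq2. Leaving out single samples gave 0 to 1 there, the 1 being without replicate 3 of dICB. Between 200 mg and isotype it was 1. Between these groups 84 of the 635 genes (13.2%) were called, a number that moved with the settings too. The member count became 2 with DESeq2 (Sigirr and Ticam2, beside 122 genes or 19.2%), 7 with housekeeping gene factors (165 genes, 26%), 5 with the compared groups alone (Cd180, Lbp, Sigirr, Ticam2 and Tirap, beside 181 genes or 28.5%) and 0 with the label code as a covariate (29 genes, 4.57%), where Sigirr was at -0.91 (adjusted p = 0.0788). Within code ICI7, where 1 sample stands for the 200 mg group and is assumed to vary like the others, it was 5 (Lbp, Nlrp3, Sigirr, Tlr2 and Tlr9, beside 148 genes or 23.3%). Without replicate 1 of dICB and replicate 2 of the 10 mg group together it was 4 (Cd180, Lbp, Sigirr and Ticam2, beside 169 genes or 26.6%). Leaving out single samples gave 0 to 4, with 0 to 136 genes of the panel: 0 without replicate 2 or 3 of isotype or of the 200 mg group, 2 without replicate 1 of isotype, replicate 2 of dICB or replicate 1 at 10 mg, and 4 without replicate 2 at 10 mg (Lbp, Sigirr, Ticam2 and Traf3). Sigirr stayed between -0.96 and -0.72 when single samples were left out. Over the 4 groups the count was 0, 1 with DESeq2 (beside 71 genes or 11.2%), and 0 to 1 without single samples, the 1 being without replicate 2 or 3 of dICB. The causes of these changes were not tested. The other comparisons kept 0 calls under every setting run. With negative controls subtracted, limma called 1 member, Sigirr, between 200 mg and isotype and 0 in each other comparison.

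With the replicate number as a block, 1 member, Sigirr, was called between 200 mg and isotype (-0.82, adjusted p = 0.0484), beside 84 genes of the panel, and 0 members in each other comparison. The correlation of deviations between same-numbered samples ran from -0.39 to 0.29 over 18 pairs.

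TMM scaling takes most genes as level. The 3 samples a group, with a common biological coefficient of variation of 28.3%, limit the precision of every value. Tlr5, Card9 and Pycard lay near background, and Nod2, Tlr9, Tlr7, Mefv, Tlr3 and Tlr6 were at or below the background limit in some samples.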
